A study of Mus musculus with 6 samples.

Results

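The genes described here encode 41 regulators of chromatin: the subunits of both Polycomb repressive complexes, the writers, erasers and readers of DNA methylation, histone lysine methyltransferases and demethylases, and core subunits of the NuRD and SWI/SNF remodelling complexes. They were taken from a list of gene symbols, with 1 probe set per gene, the one annotated with a single symbol that had the highest mean over the 6 arrays. Of the 41 genes, 39 were measured among 19938 genes tested. Cbx6 was dropped because its probe set carries 3 symbols, and Suv39h1 matched no probe set in the annotation used here.

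Polycomb repressive complex 2 (PRC2) methylates a lysine of histone H3 at silent developmental genes, and PRC1 ubiquitinates histone H2A at the same kind of gene and compacts the chromatin there. DNA methyltransferases mark cytosines of CpG dinucleotides, TET enzymes oxidise that mark, and proteins with a methyl-CpG-binding domain read it, in part by recruiting the histone deacetylases of NuRD. Valproic acid (VPA), a drug against epilepsy, inhibits class I histone deacetylases. In human prostate cancer, EZH2 is known as a methyltransferase whose level is high in advanced tumours.

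The samples were 3 arrays titled as murine prostate cancer cells with VPA, set against 3 arrays titled as their controls, each from 1 biological replicate hybridised to an Affymetrix mouse Gene 1.0 ST array. Other fields of the same labels go against the titles: they call the VPA samples undifferentiated embryonic stem cells of the strain Stra8-EGFP/Rosa26, and the control samples differentiated embryonic stem cells of the strain 129SV. Groups are called by their titles in what follows, so every VPA minus control difference rests on the titles. The dose of VPA, its duration and the line of cells used are not stated in these sources, and nothing says that the replicates were separate cultures beyond the word biological. The p-values then measure only the spread between these arrays, which may be in part technical.

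Values are log2 intensities after the authors' RMA (background correction, quantile normalization and probe set summary), and a difference of 1 is a 2-fold difference. The 6 arrays had medians from 7.15 to 7.18 over all probe sets. The number of arrays limits the precision, and the standard errors of the 39 differences ran from 0.0790 to 0.164 on the log2 scale. No detection call exists for these values, so a low value is not shown to be absence. In cultures measured in bulk, fewer cells of a type and less RNA per cell cannot be told apart. Of 12 genes of pluripotent stem cells, none passed the test, and at an unadjusted p under 0.05 none was higher and 4 were lower in the arrays titled VPA, where 9.82% of all genes were higher and 8.3% lower. Their summed log2 values ran from 80.1 to 81.9 in the VPA arrays and from 82.5 to 84.1 in the control arrays. Pou5f1, the defining pluripotency factor, had 4.99, 5.50 and 5.31 in the VPA arrays and 5.47, 5.57 and 5.86 in the control arrays. Sox2 and Klf4, which other cell types also use, were far brighter, at 10.98 to 11.53 and 10.31 to 10.35 with VPA and 11.48 to 11.71 and 10.09 to 10.47 in the controls, and differed by -0.32 and 0.11. Of 6 measured prostate epithelium genes none passed either, and Pbsn, which encodes the prostate secretory protein probasin, lay between 3.41 and 3.76 on all 6 arrays. The other 5 were brighter on every array, and Hoxb13, a homeobox gene of the prostate, ran from 7.86 to 8.04 with VPA and from 7.86 to 7.89 in the controls. Of 7 epithelial, 6 mesenchymal, 3 germ cell, 4 leukocyte and 3 endothelial genes, none passed. At an unadjusted p under 0.05 the epithelial gene Epcam, between 5.79 and 6.17 on all arrays, was higher (0.29, limma adjusted p = 0.1002). The mesenchymal genes Pdgfrb and Col3a1 were lower at that threshold (-0.36 and -0.46, limma adjusted p 0.0923 and 0.159). Both lists held differences of either sign. The epithelial ones ran from -0.31 for Krt8 to 0.29 for Epcam, with a median of 0.0057. The mesenchymal ones ran from -0.46 for Col3a1 to 0.20 for Col1a1, with a median of -0.11. Gene means over the 6 arrays ran from 8.34 to 14.06 in the mesenchymal list and from 5.99 to 7.59 in the epithelial list. Dcn and Vim were the brightest mesenchymal genes, with Dcn between 13.98 and 14.13 and Vim between 13.35 and 13.68 on all arrays. The part of these genes in the members' values was not tested.

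Transcripts of the chromatin regulators differed little between the arrays titled VPA and control, as did those of most genes. None of the 39 measured members passed limma's moderated test over all genes at an adjusted p under 0.05, against 2.34% of all genes tested (467 genes, 1.71% higher and 0.632% lower). At that share a set of 39 genes would hold few or no calls. Without control replicate 1 the test called 15 genes higher and 5 lower, and with every probe set tested 2 higher and 0 lower. The lowest adjusted p among the members was 0.203, that of Cbx7. At an unadjusted p under 0.05, 4 members were higher and 1 was lower with VPA, or 12.8% of the members against 18.1% of all genes. The 3 VPA values and the 3 control values did not overlap in 9 members, 6 higher and 3 lower, which is 23.1% of the members and 23.1% of all genes. In all genes 11.1% were higher and 12% lower without overlap. Neither share of the members, taken over both directions, stands above that of all genes. By direction, 15.4% of the members were higher and 7.69% lower without overlap. At the unadjusted threshold 10.3% of the members were higher and 2.56% lower, against 9.82% and 8.3% of all genes. The difference was above 0 in 21 members (53.8%) and in 41.4% of all genes, and in 18 members after a second quantile normalization, when the values of Pcgf1, Cbx2 and Asxl1 turned below 0.

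The 95% intervals give a range for each difference, gene by gene and without adjustment over the 39 members. The largest differences were 0.41 for Kdm5b and -0.38 for Mbd3, and the median size over the 39 members was 0.0819 on the log2 scale, against 0.116 over all genes. The median signed difference was 0.0188 over the members and -0.035 over all genes. For all 39 members the 95% interval of the difference lay within 2-fold in either direction, as it did for 98.3% of all genes. For 36 it lay within 1.5-fold, a bound met by 89.1% of all genes. The 3 exceptions were Kdm5b, Mbd1 and Mbd3.

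**Figure D1:**
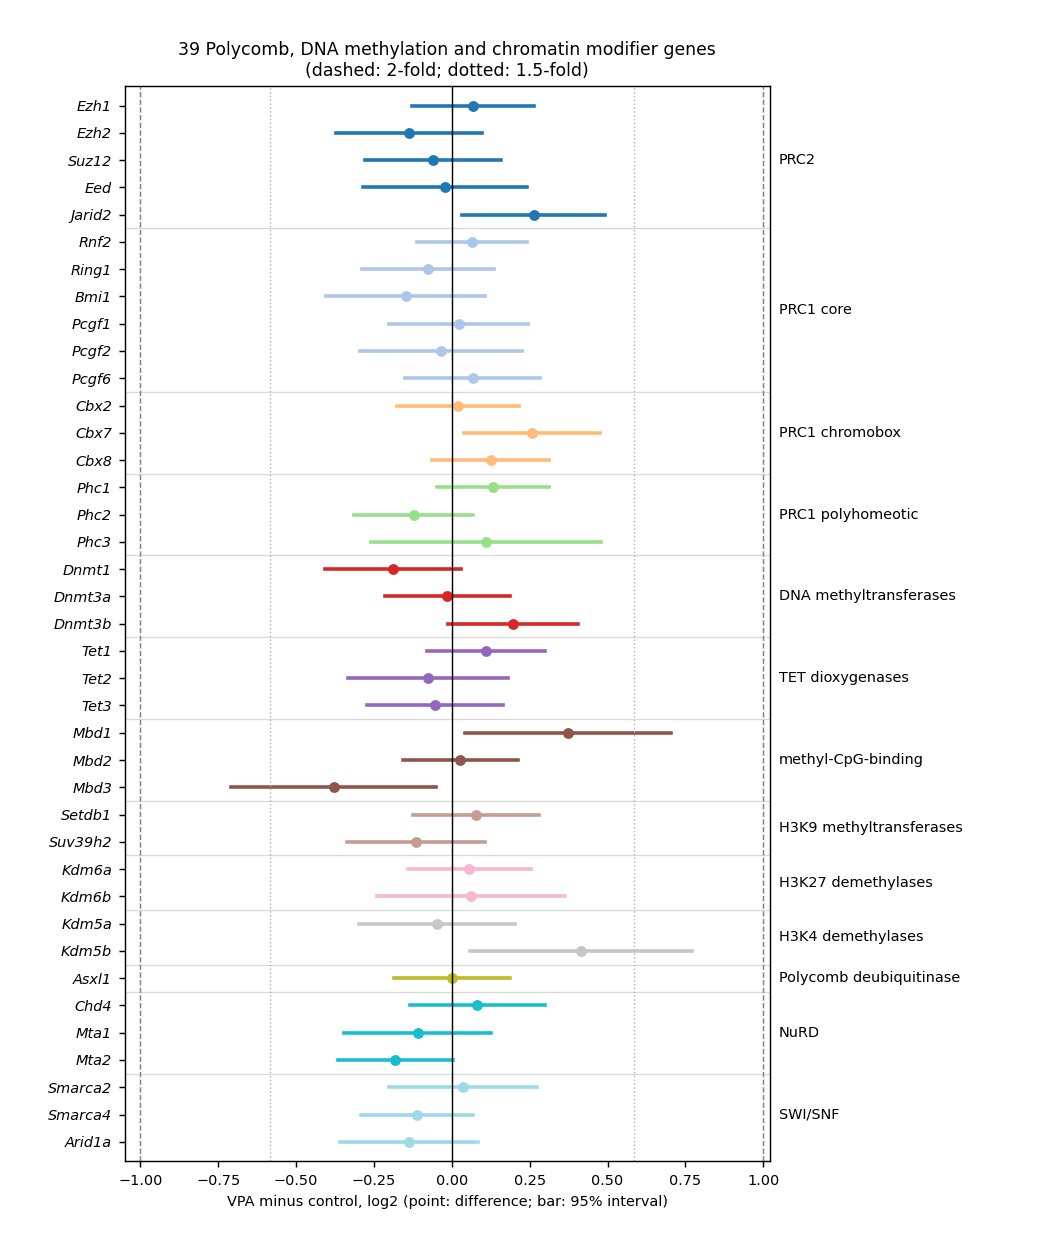
The log2 difference, VPA minus control, of each of the 39 members (point) with its 95% interval from limma (bar), grouped by complex or role, with 3 arrays per group. Dashed lines mark 2-fold and dotted lines 1.5-fold. Only the bars of Kdm5b, Mbd1 and Mbd3 cross a dotted line, and none reaches a dashed one.

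The promoters of Kdm5b and Mbd3 are shown because these genes had the largest difference in each direction. The windows hold 250 bases before and 50 bases after the annotated start, from RefSeq, build GRCm38.p6, with every CpG dinucleotide, the site of DNA methylation, in capitals. Kdm5b lies at chr1:134559928-134560227 on the plus strand and has 17 CpG dinucleotides. Mbd3 lies at chr10:80399482-80399781 on the minus strand and has 22.
Kdm5b: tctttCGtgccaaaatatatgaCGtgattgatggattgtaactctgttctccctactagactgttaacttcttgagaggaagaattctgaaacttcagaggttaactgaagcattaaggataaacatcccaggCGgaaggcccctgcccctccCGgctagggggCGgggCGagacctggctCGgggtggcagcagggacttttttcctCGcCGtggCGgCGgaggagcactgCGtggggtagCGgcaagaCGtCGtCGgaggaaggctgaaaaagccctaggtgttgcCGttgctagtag
Mbd3: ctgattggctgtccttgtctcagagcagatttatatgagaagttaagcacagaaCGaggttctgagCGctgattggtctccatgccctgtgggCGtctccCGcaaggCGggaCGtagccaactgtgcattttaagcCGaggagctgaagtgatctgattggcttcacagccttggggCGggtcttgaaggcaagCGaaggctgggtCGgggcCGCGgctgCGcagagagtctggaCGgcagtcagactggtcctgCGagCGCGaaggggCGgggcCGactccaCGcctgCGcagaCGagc

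Promoter windows were found for 33 members, and the farthest upstream was taken where a gene had several. They held a median of 23 CpG dinucleotides, from 2 in Dnmt1 to 57 in Tet2, against a median of 15 over the 15614 tested genes with a window. Dnmt1 had 3 windows, and the other windows of this gene were not counted. The ratio of observed to expected CpG dinucleotides was above 0.6 in 29 of the 33 windows (87.9%), against 52.4% of the tested genes. The hexamer GGGCGG, the core of the GC box, was searched on both strands and contains a CpG itself. It occurred in 28 of the 33 member windows (84.8%), against 49.9% of the tested genes. Kdm5b had 1 such match and Mbd3 had 2. These matches describe the letters of the windows and nothing was measured at them.

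Among the 5 PRC2 genes, the differences ran from -0.14 for Ezh2 to 0.26 for Jarid2, and none passed. Ezh2 encodes the main catalytic subunit. Its values were 11.79, 11.68 and 11.97 in the VPA arrays and 12.02, 11.81 and 12.02 in the control arrays. VPA replicates 1 and 2 lay below all the controls, but VPA replicate 3 lay among them. The difference was -0.14 (SE 0.105, 95% interval from -0.37 to 0.10, limma adjusted p = 0.514), and it ran from -0.22 without VPA replicate 3 to -0.07 without VPA replicate 2. Ezh1, the other methyltransferase of PRC2, had 10.26, 10.32 and 10.24 with VPA and 10.17, 10.32 and 10.14 in the controls, a difference of 0.07 (SE 0.0868) with overlapping groups. Suz12 and Eed, the scaffold subunits that Ezh2 needs for activity, differed by -0.06 and -0.02.

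Jarid2, a DNA-binding cofactor that helps to recruit PRC2, had the largest difference of the complex. It had 8.79, 8.71 and 8.53 in the VPA arrays, against 8.50, 8.46 and 8.28 in the control arrays. The groups did not overlap, with VPA replicate 3 just above control replicate 1. The difference of 0.26 (SE 0.102, 1.20-fold, 95% interval from 0.03 to 0.49) had an unadjusted p of 0.0290 and did not pass after adjustment, at 0.216 by limma.

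The 6 core genes of PRC1 lay between -0.15 for Bmi1 and 0.07 for Pcgf6. Rnf2 and Ring1, the ubiquitin ligases, differed by 0.06 and -0.08, and the 3 VPA values of Rnf2, from 9.19 to 9.28, were just above its control values, from 9.16 to 9.19. Bmi1, the PCGF subunit that represses the Ink4a locus, averaged 10.45 ± 0.16 with VPA and 10.60 ± 0.16 in the controls (SD, n = 3 each). The other PCGF genes, Pcgf1, Pcgf2 and Pcgf6, which place the ligases in different PRC1 variants, differed by 0.02, -0.03 and 0.07.

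The chromobox proteins of PRC1 bind the methyl mark that PRC2 lays down, and none of the 3 measured chromobox genes passed. Cbx7 and Cbx8 were higher in every VPA array than in any control, as were 11.1% of all genes. Cbx7 had 8.64, 8.49 and 8.39 in the VPA arrays and 8.21, 8.36 and 8.19 in the control arrays. The groups did not overlap, and VPA replicate 3 and control replicate 2 lay next to each other. Its difference was 0.26 (SE 0.0971, 1.20-fold, 95% interval from 0.04 to 0.48, unadjusted p = 0.0255, limma adjusted p = 0.203). Cbx8 had 8.40, 8.54 and 8.39 with VPA, against 8.32, 8.35 and 8.29 in the controls. Its groups did not overlap either, with a difference of 0.12 (SE 0.0841, adjusted p = 0.464) that was 0.08 without VPA replicate 2. Cbx2 differed by 0.02 with overlapping groups, and by -0.02 after a second quantile normalization.

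The polyhomeotic proteins join PRC1 into larger assemblies, and their genes differed in sign. Phc1 had 8.60, 8.51 and 8.53 with VPA and 8.40, 8.44 and 8.40 in the controls, so that the groups did not overlap. Phc2 had 8.67, 8.62 and 8.68 with VPA and 8.81, 8.85 and 8.68 in the controls. Their differences were 0.13 (SE 0.0795) and -0.12 (SE 0.0848), with limma adjusted p of 0.414 and 0.473. Phc3 differed by 0.11 (SE 0.164, the largest standard error of the members), and its control arrays ran from 10.62 to 11.23, a wider range than the VPA arrays, from 10.74 to 11.18. Asxl1, a subunit of the deubiquitinase that removes the PRC1 mark, averaged 10.18 ± 0.04 with VPA and 10.18 ± 0.07 in the controls (SD, n = 3 each), with a 95% interval of the difference from -0.19 to 0.19.

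**Figure D2:**
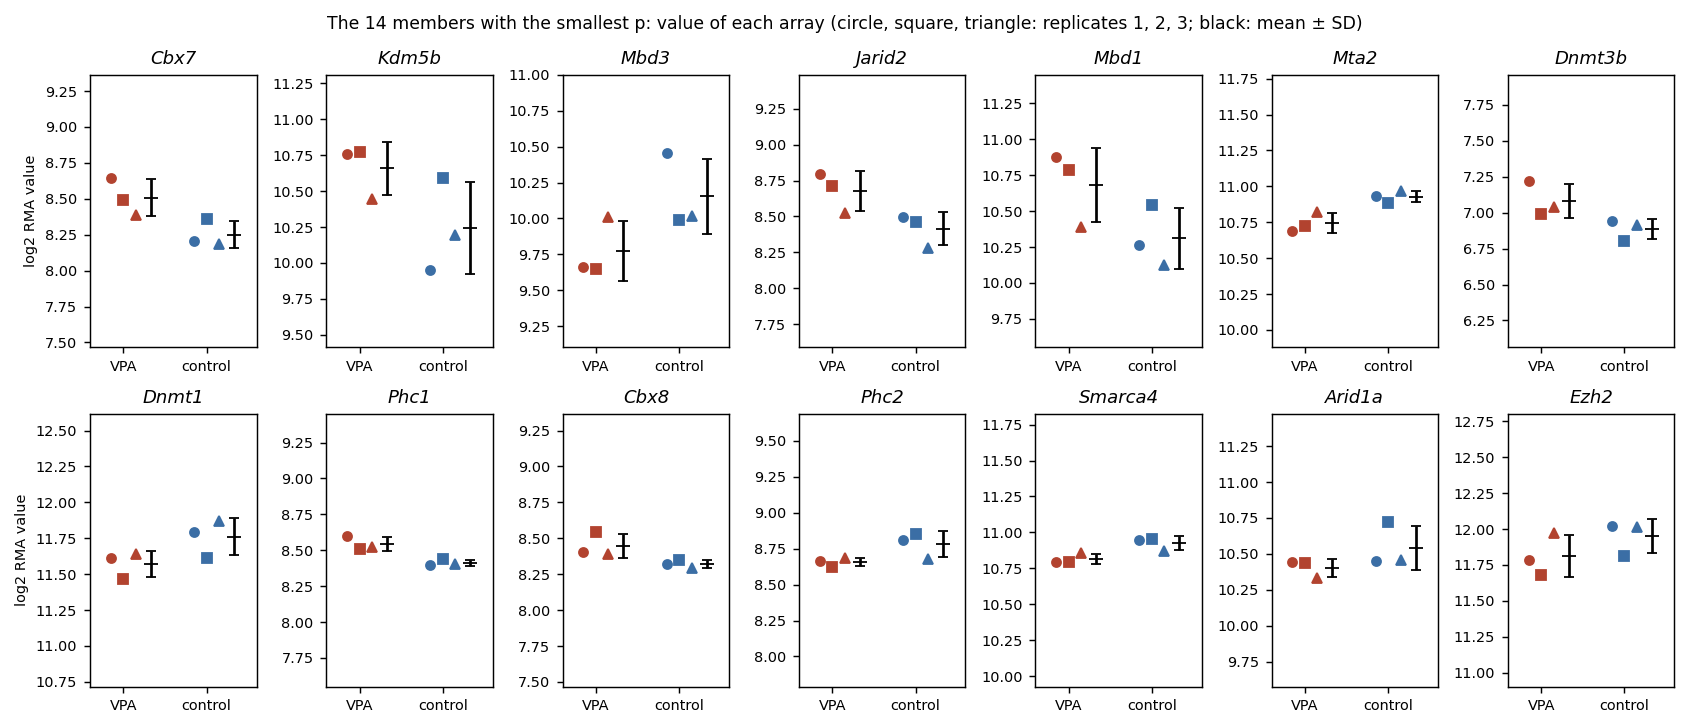
Log2 RMA value of each array for the 14 members with the smallest p, VPA left of control, with the mean ± SD of 3 arrays in black. Every panel spans the same log2 range. The groups do not overlap for Cbx7, Jarid2, Mta2, Dnmt3b, Phc1, Cbx8, Smarca4 and Arid1a, and they overlap for the others.

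None of the 3 DNA methyltransferase genes passed. Dnmt1, which copies methylation after replication, had 11.61, 11.47 and 11.64 in the VPA arrays and 11.80, 11.62 and 11.87 in the control arrays. Control replicate 2 lay among the VPA values, and the difference was -0.19 (SE 0.0975, 95% interval from -0.41 to 0.03, limma adjusted p = 0.345). Dnmt3b, a methyltransferase that sets new marks, had 7.22, 6.99 and 7.04 with VPA and 6.94, 6.81 and 6.92 in the controls. All 3 VPA values were above the controls, with a difference of 0.20 (SE 0.0931, adjusted p = 0.305) that was 0.13 without VPA replicate 1. Dnmt3a, its paralogue, had 8.995, 8.83 and 8.97 with VPA and 9.04, 8.91 and 8.88 in the controls, a difference of -0.01 with overlapping groups. The TET genes Tet1, Tet2 and Tet3 differed by 0.11, -0.08 and -0.05. A second probe set of Tet3 had a difference of 0.12, opposite in sign to the one used, whereas the further probe sets of Eed, Phc3 and Tet1 had the same sign as theirs.

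The readers of methylated CpG dinucleotides included 2 of the 3 largest differences among the members, in opposite directions. Mbd1, which represses methylated promoters, had 10.87, 10.78 and 10.39 in the VPA arrays and 10.26, 10.54 and 10.13 in the control arrays. VPA replicate 3 lay below control replicate 2, so the groups overlapped. The difference was 0.37 (SE 0.147, 1.29-fold, 95% interval from 0.04 to 0.70, limma adjusted p = 0.220), and it ran from 0.28 without VPA replicate 1 (adjusted p = 0.467) to 0.52 without VPA replicate 3 (adjusted p = 0.0647).

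Mbd3, a structural subunit of NuRD that, in mammals, has lost most of its affinity for methylated DNA, went the other way. It had 9.66, 9.65 and 10.01 with VPA, against 10.45, 9.99 and 10.02 in the controls. VPA replicate 3 lay between control replicates 2 and 3, and control replicate 1 stood above the rest. The difference was -0.38 (SE 0.147, 0.769-fold, 95% interval from -0.71 to -0.05, unadjusted p = 0.0281, adjusted p = 0.213), and it was -0.23 without control replicate 1. Mbd2, the methyl-binding alternative to Mbd3 in NuRD, differed by 0.03, with values from 12.03 to 12.09 in the VPA arrays and from 11.98 to 12.10 in the control arrays.

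Of the other NuRD genes on the list, Mta2, which links the deacetylases to the complex, had 10.69, 10.72 and 10.82 in the VPA arrays and 10.93, 10.89 and 10.96 in the control arrays. Every VPA value was below every control, with a difference of -0.18 (SE 0.0826, limma adjusted p = 0.285). Its paralogue Mta1 differed by -0.11 and Chd4, the main ATPase of NuRD, by 0.08, both with overlapping groups.

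The SWI/SNF ATPase genes differed by 0.04 for Smarca2 and -0.11 for Smarca4. Smarca4 had 10.79, 10.79 and 10.86 with VPA and 10.95, 10.96 and 10.87 in the controls, so that the groups did not overlap by a narrow margin (SE 0.0802, limma adjusted p = 0.490). Smarca2 had 11.55, 11.47 and 11.41 with VPA and 11.56, 11.52 and 11.23 in the controls, with overlapping groups. Arid1a, the DNA-binding subunit often mutated in human cancer, had 10.44, 10.44 and 10.33 with VPA and 10.45, 10.72 and 10.46 in the controls. Its groups did not overlap, though VPA replicate 1 and control replicate 1 lay side by side, and the difference was -0.14 (SE 0.0992, adjusted p = 0.491). It was -0.05 without control replicate 2, the array that stood above the rest.

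Among histone lysine enzymes, Kdm5b, a demethylase that removes the active mark from histone H3 at promoters, had the largest difference of all 39 members. It had 10.76, 10.77 and 10.45 in the VPA arrays, against 9.95, 10.59 and 10.19 in the control arrays. Control replicate 2 lay above VPA replicate 3, so the groups overlapped, and the control SD of 0.32 was the largest of any member. The difference was 0.41 (SE 0.159, 1.33-fold, 95% interval from 0.06 to 0.77, unadjusted p = 0.0272, limma adjusted p = 0.210). It was 0.59 without control replicate 2 (adjusted p = 0.0570) and 0.27 without control replicate 1 (adjusted p = 0.529). Kdm5a, its paralogue, differed by -0.05.

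The demethylases that oppose PRC2 had overlapping groups. Kdm6a had 9.25, 9.30 and 9.13 with VPA and 9.12, 9.25 and 9.14 in the controls, and Kdm6b had 9.76, 9.93 and 9.61 with VPA and 9.61, 9.98 and 9.52 in the controls. The differences were 0.06 (95% interval from -0.14 to 0.25) and 0.06 (from -0.24 to 0.36). The methyltransferases of the silencing mark of heterochromatin, Setdb1 and Suv39h2, differed by 0.08 and -0.11 with overlapping groups.

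In each array the log2 value of 1 paralogue minus that of the other shows whether both changed alike. Dnmt3a minus Dnmt3b was lower with VPA than in the controls by 0.21, in all 3 arrays against all 3, and the exact two-sided permutation test gave p = 0.1, the smallest that 3 against 3 arrays allow. The change was 0.21 for Ezh1 minus Ezh2 and 0.15 for Smarca2 minus Smarca4, each with an exact permutation p = 0.3, and -0.0063 for Kdm6a minus Kdm6b (exact p = 1). Adjusted over the 4 pairs, the values were 0.4, 0.4, 0.4 and 1, and this design cannot reach 0.05.

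**Figure D3:**
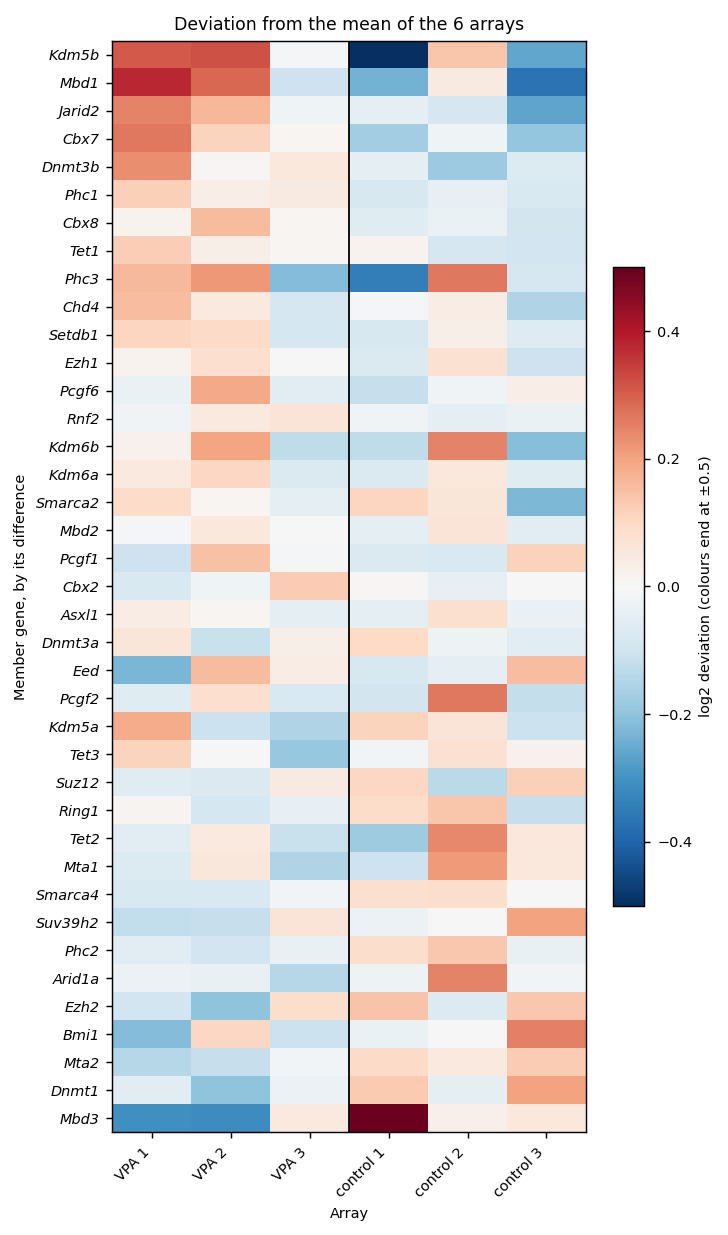
Deviation of each array from the mean of the 6 arrays (log2, colour scale ending at ±0.5) for the 39 members, ordered by their VPA minus control difference, with the VPA arrays left of the line. In the rows of Kdm5b and Mbd1, VPA replicates 1 and 2 are highest, control replicates 1 and 3 are lowest, and VPA replicate 3 and control replicate 2 lie between them. Other rows differ, and control replicate 2 is the farthest array for Arid1a.

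For many members with a positive difference, VPA replicate 3 or control replicate 2 was the array of its group nearest the other group. The counts include members whose groups did not overlap. Of the 21 members with a positive difference, VPA replicate 3 was the lowest VPA array in 15 (71.4%, against 50.5% of all genes with a positive difference). Control replicate 2 was the highest control in 13 of them (61.9%, against 48.3%). Of the 18 members with a negative difference, VPA replicate 3 was the VPA array nearest the controls in 8 (44.4%, against 47.1% of all genes) and control replicate 2 was the control nearest the VPA arrays in 5 (27.8%, against 50.2%). The part of these arrays in the members' differences was tested only by leaving each out. Among the 14 members with the smallest p, leaving out 1 array moved the difference by over 1.5 times in 6, namely Kdm5b, Mbd3, Dnmt3b, Cbx8, Arid1a and Ezh2.

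Other genes of the same machinery were described from lists that hold no member. Over 125 measured genes of 5 chromatin lists, 2 rose and 3 fell with VPA, or 4% of them against 2.34% of all genes. Of 29 other Polycomb genes 2 rose, 1 fell and 26 did not pass (median difference 0.05). L3mbtl3, a reader of methylated lysine of the MBT family, rose 1.82-fold. It had 10.36, 10.04 and 9.77 in the VPA arrays, against 9.07, 9.35 and 9.16 in the control arrays (log2 0.86, SE 0.146, limma adjusted p = 0.0227). Scml2, a Polycomb protein of the same reader family, had 8.69, 8.66 and 8.66 with VPA and 8.21, 8.19 and 8.07 in the controls, and it rose 1.43-fold (log2 0.52, SE 0.0823, adjusted p = 0.0180). Phf19, a Polycomb-like protein that brings PRC2 to its sites, had 8.69, 8.65 and 8.93 with VPA and 9.45, 9.29 and 9.46 in the controls. It fell by 0.64 on the log2 scale (SE 0.101, adjusted p = 0.0174). The groups did not overlap for any of these genes, and each lost its call without VPA replicate 1 or 2 or control replicate 1 or 3. The adjusted p then ran from 0.0615 to 0.102 for L3mbtl3, from 0.0697 to 0.0776 for Scml2 and from 0.0697 to 0.0843 for Phf19.

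**Figure D4:**
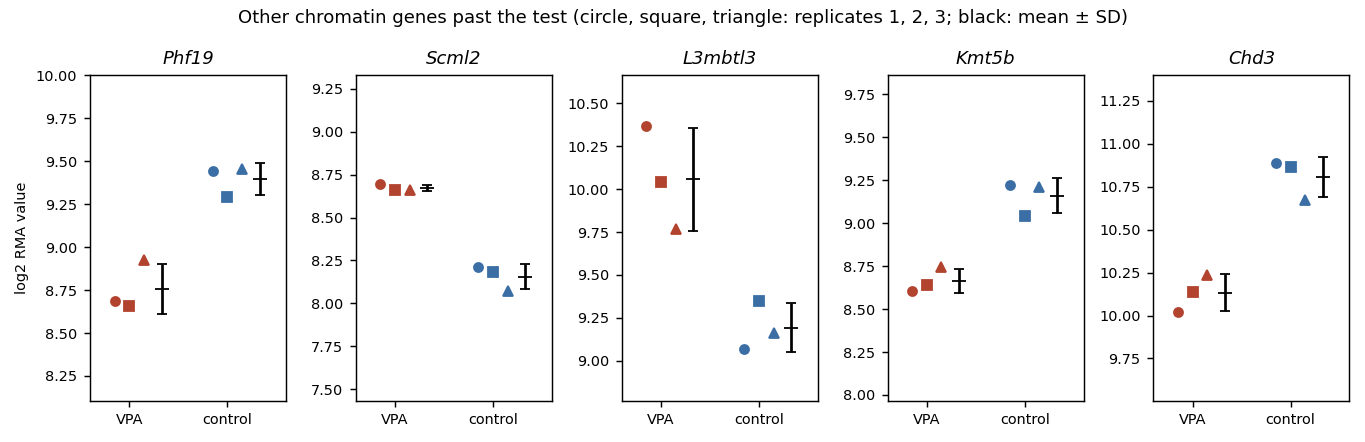
Log2 RMA value of each array for the 5 other chromatin genes that passed limma's test, VPA left of control, with the mean ± SD of 3 arrays in black. Scml2 and L3mbtl3 are higher with VPA and Phf19, Kmt5b and Chd3 are lower, and in each panel the 3 VPA values are separate from the 3 control values.

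Among 16 other NuRD and CHD genes, 1 fell and none rose, and the other 15 did not pass. Chd3, an ATPase that can take the place of Chd4 in NuRD, had 10.02, 10.14 and 10.24 in the VPA arrays and 10.89, 10.86 and 10.68 in the control arrays. It fell by 0.68 (SE 0.0975, 95% interval from -0.90 to -0.46, limma adjusted p = 0.0139), while the interval of Chd4 ran from -0.13 to 0.30, and the difference between the 2 was not tested. Chd3 lost its call without VPA replicate 1, VPA replicate 2 or control replicate 1, with adjusted p from 0.0580 to 0.0703. Of 43 other histone lysine methyltransferase and demethylase genes, 1 fell and none rose, and the other 42 did not pass (median -0.07). Kmt5b, which methylates histone H4, had 8.61, 8.64 and 8.74 with VPA and 9.22, 9.04 and 9.21 in the controls. It fell by 0.50 (SE 0.0900, adjusted p = 0.0274) and lost its call without VPA replicate 1 or 2 or control replicate 1 or 3, with adjusted p from 0.0949 to 0.120. None of these 5 genes passed when every probe set was tested (adjusted p from 0.131 to 0.152).

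No gene passed among 17 other DNA methylation genes and 22 other SWI/SNF genes. Uhrf2, a paralogue of the Dnmt1 partner Uhrf1, differed by -0.40 (limma adjusted p = 0.0567) and Zbtb38, a zinc finger reader of methylated DNA, by -0.31 (adjusted p = 0.106). In SWI/SNF the core subunit gene Smarcb1 differed by -0.36 (adjusted p = 0.0852) and Bcl7b by -0.32 (adjusted p = 0.101). Uhrf2 passed when only genes at log2 6 or more in 3 arrays were tested (adjusted p = 0.0405) and with limma's trended robust prior (0.0348), and Smarcb1 passed without VPA replicate 3 (0.0491). All 3 VPA values lay below all 3 controls for these 4 genes. Of the 22 SWI/SNF genes, none was higher and 4 were lower at an unadjusted p under 0.05, shares to be read against 9.82% higher and 8.3% lower over all genes.

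Genes known as targets of these systems did not pass either, and not all of them had low values in these arrays. Of 34 developmental genes known as Polycomb targets, none was higher and 4 were lower at an unadjusted p under 0.05, with a median difference of -0.09. Over all genes 9.82% were higher and 8.3% lower at that threshold, with a median difference of -0.035. The means of the 34 genes over the 6 arrays ran from 4.74 to 11.64, and Gata3 lay between 11.52 and 11.72. The 2 with the smallest p, the homeobox genes Gsc and Pax6, differed by -0.27 and -0.24 (limma adjusted p 0.141 and 0.189). Of 17 germline genes known to be silenced by promoter methylation, none was higher and 2 were lower, to be read against the same shares of all genes. The 2 were Slc25a31 and Tex101, both at -0.25 (limma adjusted p 0.207 and 0.216). Slc25a31 lay between 4.04 and 4.44 and Tex101 between 5.76 and 6.23, so neither reached log2 6 in 3 arrays. The means of the 17 genes ran from 3.67 to 6.42. Among 17 proliferation genes, whose levels are known to run with those of Ezh2 and Dnmt1, none passed, the median was -0.15, and Tk1 and Plk1 differed by -0.51 and -0.39 (adjusted p 0.0650 and 0.149). Tk1 passed with the same floor of log2 6 (adjusted p = 0.0491), the trended robust prior (0.0425) and without VPA replicate 3 (0.0178), and Plk1 passed without VPA replicate 3 (0.0463). Their summed log2 values ran from 190.1 to 193.7 in the VPA arrays and from 193.2 to 195.3 in the control arrays, and their part in the values of Ezh2 and Dnmt1 was not tested.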

How the data were processed

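The deposited table holds log2 values of 35556 probe sets on 6 arrays, which the authors produced by RMA using Affymetrix Expression Console, according to the labels and per the submitters' processing notes. RNA was isolated with Trizol and labelled with biotin, per the labels' protocols. Program versions and the build of the genome are not stated in these sources. The quantile normalization within RMA gives every array the same distribution of probe intensities, so a change shared by most transcripts could not be seen.

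Samples were grouped by title. Probe sets with exactly 1 symbol in the platform annotation (21789) were kept, and symbols were checked by Entrez identifier against RefSeq GRCm38.p6, which changed 0. The probe set with the highest mean gave 19938 genes. VPA minus control was fitted with limma 3.58.1 in R 4.3.3 (lmFit and eBayes, group only, two-sided, Benjamini-Hochberg over all genes, called at an adjusted p under 0.05), and tested on simulated data. No filter on low values was set, and all 39 members also passed a floor of log2 6 in 3 arrays. Paralogue pairs were compared by an exact permutation test in 4 pairs of 5 planned, because Suv39h1 had no value. The labels state no factor besides the group, so the replicate number was not used as a block in the main fit. Arrays with the same replicate number had correlated deviations for replicates 2 and 3 (0.451 and 0.284) but less so for replicate 1 (0.084). A fit with the block is given among the alternatives.

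Members, lists and tests were chosen with earlier results of these data known. Named were the 14 members with the smallest p, the members of the paralogue pairs and Dnmt1, and from each list up to 3 called genes in each direction or the 2 with the smallest p. The alternatives were an intensity floor, a second quantile normalization, median centring, a trended robust prior, the replicate block, averaged probe sets, every probe set, a threshold of 0.1 and leaving out each array.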

Additional observations from a re-analysis of the deposited data

How the results depend on the processing

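None of the 39 members passed limma's test under any of the 14 alternatives. The lowest adjusted p of any member ran from 0.0570 (Kdm5b, without control replicate 2) to 0.421 (Kdm5b, without VPA replicate 1), and with the replicate block it was 0.0613 (Mbd1). Of 266 values of named members under an alternative, 260 kept their direction. The other 6 were of genes near 0, and without single arrays Smarca2 ran from -0.0676 to 0.0977, Dnmt3a from -0.0475 to 0.0371 and Kdm6b from -0.0299 to 0.201. The change of Kdm6a minus Kdm6b ran from -0.106 to 0.0684 without single arrays and was 0.0033 with a second quantile normalization. At an unadjusted p under 0.05, members numbered 0 to 4 higher and 0 to 2 lower without single arrays. When all probe sets were tested, not 1 per gene, they were 2 higher and 0 lower, and 2 were lower with the intensity floor, the second quantile normalization, the trended robust prior or the replicate block. With the second quantile normalization or the replicate block 5 members were higher, which made 7 of the 39 members in either direction. The share of all genes at that threshold, in either direction, moved as well, from 12.2% to 21.9% without single arrays. It was 14.7% when all probe sets were tested, 21.6% with the intensity floor, 17.8% with the second quantile normalization, 18.6% with the trended robust prior and 23.2% with the replicate block. Over all genes, 827 were higher and 372 lower with the replicate block, 745 and 328 at an adjusted p under 0.1, 2 and 0 when all probe sets were tested, and 15 to 595 and 5 to 220 without single arrays. The lowest counts came without control replicate 1, the highest without VPA replicate 3. Of the 125 other chromatin genes, 0 were higher and 0 lower with every probe set tested, 5 were lower with the intensity floor or the trended robust prior, 6 were lower with the replicate block or at an adjusted p under 0.1, and 0 to 3 were higher and 0 to 4 lower without single arrays. L3mbtl3, Scml2, Phf19, Kmt5b and Chd3 had adjusted p from 0.131 to 0.152 with every probe set tested. With the replicate block Uhrf2, Smarcb1 and Tk1 passed (adjusted p 0.0284, 0.0363 and 0.0446), and Uhrf2 and Tk1 also passed with the intensity floor and the trended robust prior. The labels do not say that arrays with the same replicate number form a pair. By their deviations every VPA array, and control replicates 2 and 3, correlated best with the array of the same number. Control replicate 1 correlated best with a VPA array of another number. The causes of these changes were not tested.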
